A study of Mus musculus with 4 samples.

Results

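The chemokines CXCL13, CCL19 and CXCL12 and their receptors CXCR5, CCR7 and CXCR4 were followed in leukocytes of subcutaneous pancreatic tumours. These 3 ligand and receptor pairs position lymphocytes and dendritic cells (DCs) in lymphoid tissue. The 6 genes Cxcl13, Cxcr5, Ccl19, Ccr7, Cxcl12 and Cxcr4 were taken by symbol from a fixed list, with no measured value used, and all 6 were among the 33696 features of the count tables. Each treatment group was 1 single-cell library made from 10 pooled tumours.

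All tumours grew from KPC cells, a mouse pancreatic carcinoma line, injected under the skin of male C57BL/6NHsd mice aged 8 to 10 weeks. The untreated group received neither agent. The second group received ADU-S100, an agonist of the nucleic acid sensor STING, injected once into the tumour at 2 µg. The third received an agonist antibody against the lymphotoxin beta receptor (anti-LTβR) into the peritoneum, 4 times at 100 µg. The combination group received both agents at the same doses. Tumours were collected at day 14, and CD45+ cells, the leukocytes, were sorted for 5′ single-cell RNA sequencing, so stromal cells were present only where they passed the sort.

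In lymph nodes CXCL13 is made mainly by follicular stroma and draws CXCR5+ B cells and follicular helper T (TFH) cells into follicles. CCL19 and its relative CCL21 are made mainly by T zone stroma and draw CCR7+ naive T cells and mature DCs. CXCL12 is a stromal chemokine of many tissues and retains CXCR4+ cells, among them plasma cells, neutrophils and progenitors. Lymphotoxin beta receptor signalling in stroma is a known inducer of CXCL13, CCL19 and CCL21.

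After filters, 7524 untreated, 13444 ADU-S100, 13223 anti-LTβR and 14667 combination cells remained, 48858 in all. They formed 48036 leukocytes and 822 carcinoma-like cells that had passed the sort. Median UMIs (unique transcript tags) per cell were 4616, 3110, 3738 and 2200 in that order, which is the order of all series of 4 values given here. The combination library was thus the shallowest per cell, and shares of cells with a UMI are also given after thinning every cell to 1000 UMIs. Between 34 and 83 cell barcodes were shared by each pair of libraries. Clusters were built without the 6 genes and their pathway and were named from markers as B cell-like, T cell-like and so on. Between 10.6% and 16.9% of leukocytes stayed unnamed. Levels are UMIs per 1000000 UMIs of the cell class (CPM) with exact Poisson 95% intervals, ratios are log2 ratios to the untreated library with exact binomial 95% intervals, and both cover counting error only. With 1 library per group no difference has a replicate check and no test was possible.

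The ligands were rare in the sorted cells, and each was carried by few cells. Cxcl13 UMIs numbered 83 in the untreated, 125 in the ADU-S100, 32 in the anti-LTβR and 41 in the combination library. They lay in 7, 5, 6 and 9 cells, and a single cell held 42, 117, 15 and 32 of them. In all, 280 of 281 Cxcl13 UMIs (99.6%) lay in macrophage- or monocyte-like cells. None lay in the 366 B cell-like or the 5577 T cell-like cells, which allows a share with a UMI of up to 0.82% and 0.0538%. Such limits concern detection at this depth, not how many cells express a gene. Among all deposited barcodes, 8 cells with at least 5 Cxcl13 UMIs held 346 of 382, and all 8 also carried Ptprc, which encodes CD45, and the macrophage genes C1qa and Apoe. Of these cells 6 were kept and 2 were removed for more than 5000 detected genes, among them one with 83 Cxcl13 UMIs.

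Across all leukocytes Cxcl13 stood at 1.9, 1.88, 0.520 and 0.915 CPM. The log2 ratios were −0.02 for ADU-S100, −1.86 for anti-LTβR and −1.05 for the combination. The levels follow single cells. With the cell of most Cxcl13 left out in each library, the ratios were −2.90 for ADU-S100 and −2.16 for the combination, so the closeness of ADU-S100 to untreated rested on 1 cell with 117 of 19421 UMIs. No order of the groups can be read from so few source cells.

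Ccl19 was close to absent, with 3, 1, 4 and 6 UMIs, each in a different cell. Of these 14 UMIs, 12 lay in macrophage- or monocyte-like and 2 in T cell-like cells. None lay in the 696 mature DC-like cells, which allows a share with a UMI of up to 0.431% and, since reads may be lost between copies, sets no limit on cells expressing Ccl19. In lymphoid organs mature DCs are a known source of CCL19 beside stroma. Of the 914 stretches of 50 bases in the annotated Ccl19 transcripts, 52% also occur in other genes, all Ccl19-related copies or predicted genes, and such reads could have been lost or moved between copies in the authors' counting. The transcribed pseudogene Ccl19-ps2 had more UMIs than Ccl19 itself, with 8, 3, 16 and 32. Of its 59 UMIs, 44 lay in macrophage- or monocyte-like and 5 in mature DC-like cells. Ccl21a, the other CCR7 ligand gene with UMIs, had 5, 2, 3 and 2. It shares 71.6% of its 50-base stretches with other genes and is uncertain for the same reason. Ccl21b and Ccl21d had no UMI.

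Cxcl12 had 31, 43, 70 and 41 UMIs in kept cells. Of these 185 UMIs, 100 (54.1%) lay in carcinoma-like cells and 61 (33%) in macrophage- or monocyte-like cells. With cells named one by one without clusters, carcinoma-like cells held 15.1%, so this source depends on how cells were named. In the carcinoma-like cluster Cxcl12 stood at 8.17 (4.08 to 14.6), 11.2 (6.25 to 18.4), 27.7 (20.5 to 36.5) and 15.1 (9.65 to 22.4) CPM. The anti-LTβR level was the highest, with a log2 ratio of 1.71 (0.80 to 2.85), and its interval did not meet the untreated or the ADU-S100 one. Of the 50 UMIs behind this level, 25 lay in 1 cell, so the difference leans on that cell. In leukocytes Cxcl12 stood at 0.458, 0.420, 0.325 and 0.380 CPM, with no library apart from the others. The cells of most Cxcl12 had stromal genes. Among deposited barcodes, 20 cells with at least 3 Cxcl12 UMIs held 182 of the UMIs. Of these, 16 carried Col3a1, a fibroblast collagen gene, 6 carried Krt8, an epithelial keratin gene, and 3 carried Ptprc. One anti-LTβR cell with 25 Cxcl12 UMIs had 18 UMIs of Cdh5, which encodes endothelial cadherin. The carcinoma-like cluster had Krt8 in 58.4%, Ptprc in 14% and Col1a1 in 6.45% of its cells, so its Cxcl12 came from a mixed cluster, and the part of each cell kind in the difference was not tested.

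**Figure D1:**
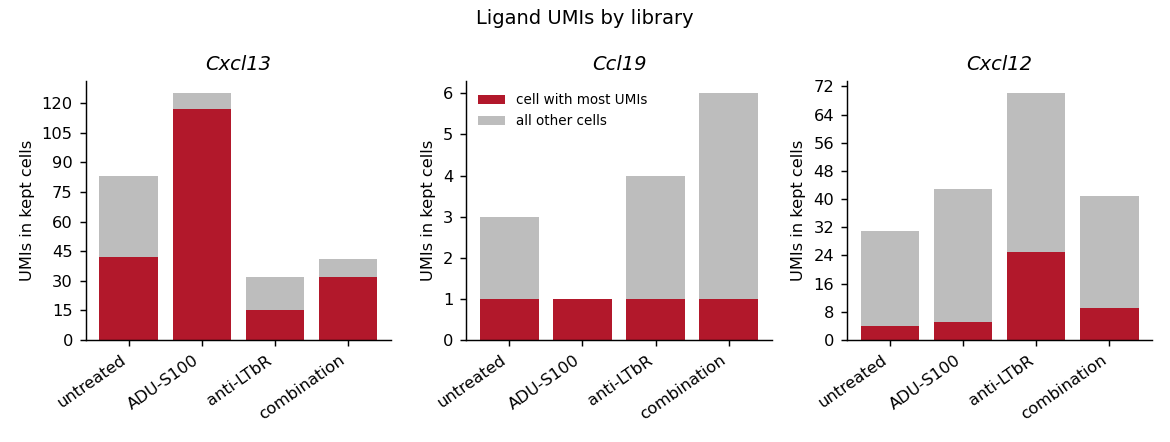
UMIs of Cxcl13, Ccl19 and Cxcl12 in kept cells (vertical axes, each with its own scale) of each library, with the part held by the cell of most UMIs in red and all other cells in grey. A single cell held 117 of the 125 Cxcl13 UMIs in the ADU-S100 library, Ccl19 stayed at 6 UMIs or fewer, and Cxcl12 reached 70 UMIs in the anti-LTβR library, 25 of them in 1 cell.

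The receptors were far better measured, with 1375 Cxcr5, 15292 Ccr7 and 39669 Cxcr4 UMIs in kept cells, and each had a different main carrier. B cell-like cells held 23.6% of the Cxcr5, mature DC-like cells 69.8% of the Ccr7 and macrophage- or monocyte-like cells 56.2% of the Cxcr4 UMIs. The carcinoma-like cells, which should lack CXCR5 and CCR7, gave the background. In 822 such cells with a median of 6282 UMIs, 1 cell (0.122%) had a Cxcr5 UMI and 7 (0.852%) had a Ccr7 UMI. In the anti-LTβR library all 10 of their Ccr7 UMIs lay in cells that bore at least 3 mature DC markers, so the Ccr7 background is not clean.

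Cxcr5 was the receptor whose level over all leukocytes differed most from the untreated library. It stood at 3.23 (2.72 to 3.81), 5.46 (4.92 to 6.05), 7.56 (6.89 to 8.28) and 9.02 (8.16 to 9.94) CPM. The treated libraries all lay above untreated, and both libraries given anti-LTβR lay above ADU-S100. The log2 ratios were 0.76, 1.22 and 1.48. With median-of-ratios size factors in place of total UMIs the ADU-S100 ratio was 1.14, past 2-fold. The distance of ADU-S100 from the libraries given anti-LTβR thus depended on the normalization. The combination exceeded anti-LTβR by 0.26 (0.06 to 0.45) and ADU-S100 by 0.72 (0.52 to 0.93). Of the members that passed the minimum of 200 UMIs over both libraries, a 2-fold difference was reached by 0 of 4 for ADU-S100, 1 of 3 for anti-LTβR and 1 of 3 for the combination, in both cases Cxcr5. Over all genes passing the same minimum, 12.9%, 2.47% and 3.5% reached it. Between the combination and ADU-S100 0 of 3 members reached it, against 7.58% of all genes, and between the combination and anti-LTβR 0 of 3, against 1.6%.

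B cell-like cells had the highest Cxcr5 level of any class, at 138, 410, 274 and 354 CPM. The first 2 values rest on 4 and 8 UMIs in 6 and 8 cells, and their intervals are wide, at 37.7 to 354 and 177 to 809 CPM. The anti-LTβR and combination levels rest on 139 and 213 cells. B cell-like cells were thus counted almost only in these libraries, and at equal depth 25.6% and 26.4% of them had a Cxcr5 UMI. Between them the B cell level was higher in the combination by a log2 ratio of 0.37 (0.04 to 0.70), while a difference from the untreated library was not detectable at this depth.

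Mature DC-like cells, which were found in every library (178, 157, 182 and 179 cells), also carried Cxcr5. Their levels were 45.0, 77.2, 56.2 and 51.1 CPM, with intervals that overlapped except where ADU-S100 (60.9 to 96.5) lay above untreated (33.6 to 59.2). Neutrophil-like cells had 11.8, 13, 14.4 and 15.3 CPM, a difference within the counting error. At a median of 1801 UMIs, 2.33% of neutrophil-like cells had a Cxcr5 UMI, against the 0.122% in carcinoma-like cells. Macrophage- or monocyte-like cells were low at 0.804, 1.07, 1.10 and 1.64 CPM.

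In T cell-like cells Cxcr5 stood at 6.89 (4.87 to 9.45), 16.7 (12.1 to 22.6), 18.6 (15.4 to 22.2) and 27.1 (21.7 to 33.4) CPM. All 3 treated libraries lay above the untreated one, with log2 ratios of 1.28, 1.42 and 1.97. The combination also exceeded ADU-S100 by 0.69 (0.15 to 1.26) and anti-LTβR by 0.55 (0.13 to 0.95). At equal depth 9 of 1297, 6 of 551, 36 of 1801 and 32 of 1259 T cell-like cells had a Cxcr5 UMI, so the ADU-S100 share rests on 6 cells. Split by the coreceptor genes, CD8 T cell-like cells had 6.38, 26.6, 22.8 and 36.2 CPM and CD4 T cell-like cells 13.7, 8.85, 16.5 and 20.1 CPM. The CD4 values rest on 13, 4, 20 and 8 UMIs, and no treated value was apart from untreated beyond counting error. Only cells with UMIs of Cd4 or of the Cd8 genes, but not of both, entered the split. They were 37.6%, 35.5%, 32.4% and 41.1% of T cell-like cells for CD8 and 18.9%, 19%, 18.9% and 11.3% for CD4. The CD8 levels were higher in each treated library, by 2.05, 1.81 and 2.48 on the log2 scale. Within subsets, cells of the cluster marked by naive or memory genes carried Cxcr5 at 52.5, 146, 63.1 and 84.2 CPM. Regulatory T cell-like cells had 19.0, 16.0, 12.1 and 5.60 CPM, from only 15, 4, 6 and 1 UMIs, too few to order the libraries. The TFH-like cluster, whose name stands for cells known for CXCR5, had 4.97 (0.126 to 27.7), 50.03 (13.6 to 128), 29.8 (14.3 to 54.7) and 27.0 (8.77 to 63.0) CPM, from 1, 4, 10 and 5 UMIs. These intervals are too wide to order the TFH-like values among libraries. The cluster was named from 5 of 8 TFH markers, and no TFH marker was among its leading genes. Its Cxcr5 value was below that of the naive or memory subset in every library, so Cxcr5 does not bear out the name. Effector or exhausted CD8 T cell-like cells held 3, 0, 5 and 0, and the zeros allow a UMI in up to 1.9% of 158 and 0.688% of 436 cells.

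The naive or memory subset was itself a larger share of T cell-like cells in both libraries given anti-LTβR. It made up 4.55%, 6.06%, 15.9% and 21.9% of them, and the ADU-S100 interval (4.28% to 8.29%) overlapped the untreated one (3.52% to 5.79%). Effector or exhausted CD8 T cell-like cells made up 35.9%, 26.6%, 18.2% and 26.9%, and cells of no named subset 21.3%, 36.9%, 35% and 30.9%. In both libraries given anti-LTβR the higher T cell level of Cxcr5 thus stood beside a larger share of the T cell subset with the highest level. The part of this share in the Cxcr5 level was not tested. Klf2, which encodes a regulator of recirculation, was also higher in T cell-like cells of every treated library, as given with the pathway genes.

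**Figure D2:**
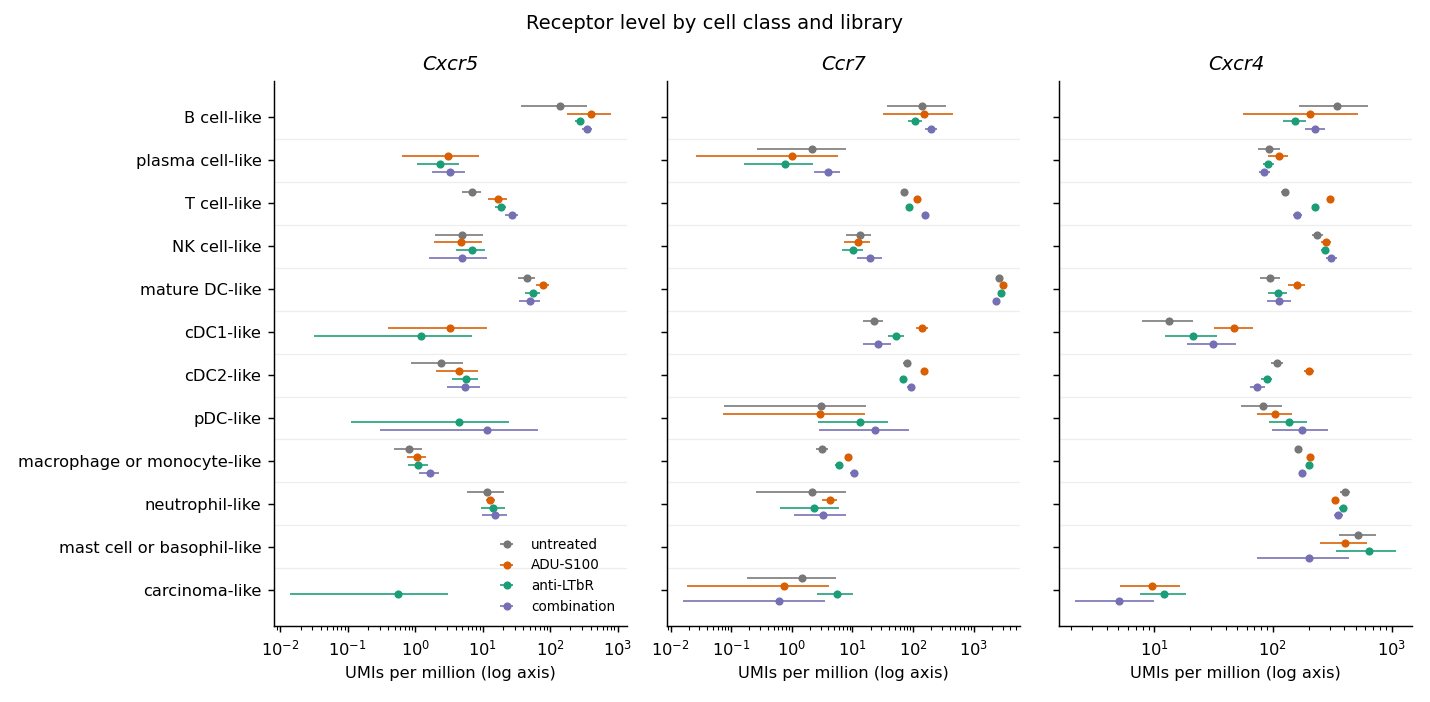
CPM of Cxcr5, Ccr7 and Cxcr4 (horizontal log axes) by cell class and library, with exact Poisson 95% intervals of counting error as bars and no point where a library had no UMI. Cxcr5 was highest in B cell-like cells, Ccr7 in mature DC-like cells at 2297 to 3036 CPM, and Cxcr4 was spread over most classes.

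Ccr7, the receptor that guides mature DCs and naive T cells to the T zone, had lower levels over all leukocytes in the treated libraries, a difference that depended on the processing for both single agents. Its levels were 85.5, 65.1, 71.8 and 62.3 CPM, and the log2 ratios −0.39, −0.25 and −0.46 stand beside medians of −0.38, −0.06 and −0.15 over all genes. The ADU-S100 ratio was thus close to that of the median gene, and with size factors it was −0.013. With all deposited cells the anti-LTβR ratio was −0.031. Mature DC-like cells held 79.9%, 69.8%, 71.8% and 53.1% of the Ccr7 UMIs, and their own level was 2635, 3036, 2833 and 2297 CPM. Their log2 ratios were 0.20, 0.11 and −0.20. The ADU-S100 and combination ratios depended on how cells were named, and without clusters both were closer to untreated, as given with the processing. The share of mature DC-like cells with a Ccr7 UMI was 93.8%, 89.2%, 94% and 80.5%, and at 1000 UMIs per cell it was 81.8%, 75.4%, 81.8% and 71.0%. The library that was lowest, the combination, was also the one of fewest UMIs per mature DC-like cell (median 3099 against 4945 to 5787), and the part of depth in this was not tested beyond the thinning.

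Conventional DCs carried less Ccr7. In cDC2-like cells it stood at 79.1, 149, 69.0 and 92.0 CPM, with ADU-S100 (133 to 167) above the other 3. Without cells that bore at least 3 of 10 mature DC markers the cDC2 ratio for ADU-S100 was 0.67 (0.40 to 0.95), against 0.92 with them. In cDC1-like cells it stood at 22.4, 142, 53.3 and 26.3 CPM. Here the few cells that also bore mature DC markers decided the values. They held 62 of the 87 cDC1 Ccr7 UMIs in the ADU-S100 library and 35 of 43 in the anti-LTβR library. Without them the cDC1 levels were 22.8, 44.9, 10.3 and 7.16 CPM. The log2 ratio for anti-LTβR thus went from 1.25 to −1.08 (−2.48 to 0.01) and changed sign, though the second value was not apart from untreated. Whether these were doublets or maturing cDC1 cannot be told apart here.

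T cell-like cells held 10.6%, 6.75%, 12.8% and 18.6% of the Ccr7 UMIs. Their levels were 71.8 (64.9 to 79.2), 117 (104 to 131), 86.7 (79.7 to 94.2) and 160 (146 to 174) CPM. The combination was the highest, with a log2 ratio of 1.15, and the ratios for ADU-S100 and anti-LTβR were 0.70 and 0.27. It exceeded ADU-S100 by 0.45 (0.24 to 0.67) and anti-LTβR by 0.88 (0.71 to 1.06). No T cell-like cell carried 3 or more of the 10 mature DC markers. At equal depth 4.70%, 4.90%, 6.05% and 10.6% of T cell-like cells had a Ccr7 UMI. The ADU-S100 share was close to the untreated one although its level was higher, so its Ccr7 lay in few cells of many UMIs.

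By subset, Ccr7 in naive or memory T cell-like cells stood at 191, 293, 224 and 304 CPM. CD8 T cell-like cells had 52.1, 208, 109 and 181 CPM, and 3.92%, 7.81%, 8.16% and 10.8% of them had a UMI at equal depth. All 3 treated libraries were higher in CD8 cells by both measures. CD4 T cell-like cells had 157, 46.5, 87.3 and 224 CPM, with log2 ratios of −1.72 for ADU-S100, −0.84 for anti-LTβR and 0.52 for the combination. For both single agents the Ccr7 ratio thus had opposite signs in CD4 and CD8 T cell-like cells, and the difference between these was not tested. Regulatory T cell-like cells had 207, 63.9, 131 and 78.4 CPM, lower in every treated library. Effector or exhausted CD8 T cell-like cells had 30, 229, 55.7 and 94.9 CPM. The ADU-S100 value came from 161 UMIs in 21 cells, 35 of them in 1 cell, and at equal depth its share was 4.58% against 2.31% in the untreated library. TFH-like cells had 283, 75.1, 217 and 416 CPM, of which the ADU-S100 value rests on 6 UMIs. In the untreated and combination libraries their value was above that of the naive or memory subset, with overlapping intervals.

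B cell-like cells had Ccr7 at 138, 154, 108 and 199 CPM, of which the first 2 values rest on 4 and 3 UMIs. The combination level (160 to 245) was above the anti-LTβR one (82.5 to 139). Macrophage- or monocyte-like cells stood at 3.14, 8.58, 5.93 and 10.5 CPM, and 1.27% of them had a UMI against 0.852% of carcinoma-like cells. These shares are pooled over libraries and the background is not clean, so no difference between libraries was read from them. Without cells that bore at least 3 mature DC markers the log2 ratios were 0.87 (0.49 to 1.28), 0.87 (0.48 to 1.28) and 1.60 (1.22 to 2.01). In the ADU-S100 library cells with mature DC markers held 113 of its 320 macrophage UMIs.

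**Figure D3:**
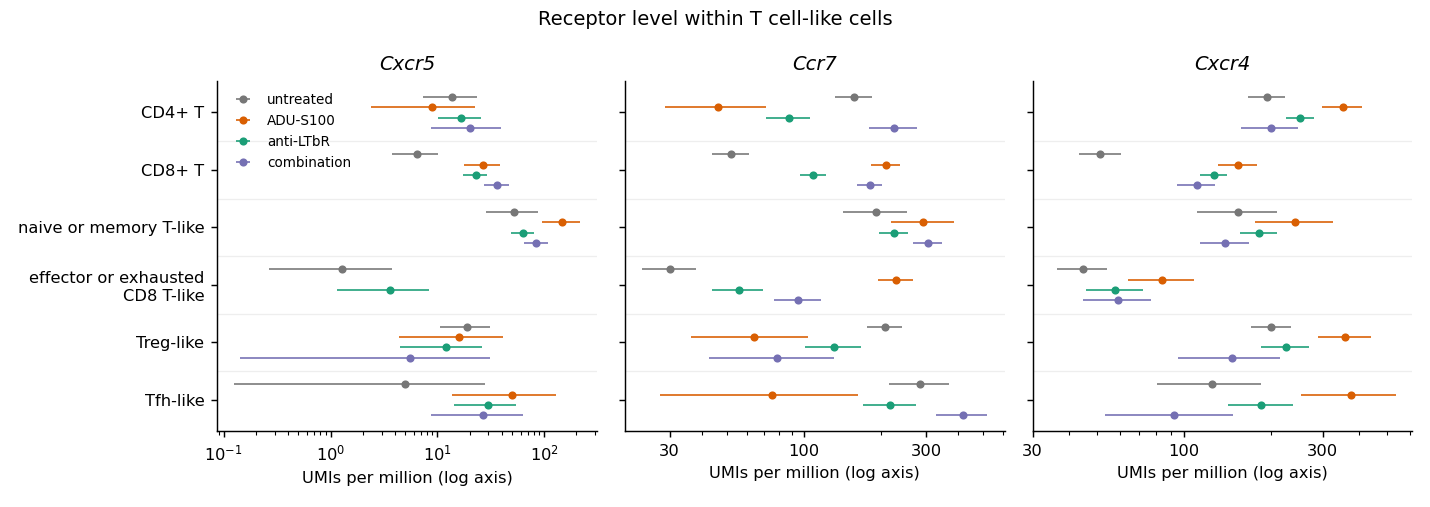
CPM of Cxcr5, Ccr7 and Cxcr4 (horizontal log axes) in CD4 and CD8 T cell-like cells and in 4 named subsets by library, with exact Poisson 95% intervals of counting error as bars and no point where a library had no UMI. In CD8 cells all 3 receptors were lowest in the untreated library, and in CD4 cells Ccr7 was lowest in the ADU-S100 library at 46.5 CPM.

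Cxcr4, the receptor of CXCL12, was the most abundant member and was carried by nearly every leukocyte class. Over all leukocytes it stood at 149, 224, 183 and 155 CPM, with log2 ratios of 0.59, 0.30 and 0.06. ADU-S100 was the highest and the combination lay close to untreated. At equal depth 13.9%, 19.7%, 16.2% and 13.9% of leukocytes had a Cxcr4 UMI, in the same order. In carcinoma-like cells Cxcr4 had 0, 13, 22 and 8 UMIs, and the zero in 152 untreated cells allows a share with a UMI of up to 1.97%.

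Neutrophil-like cells had Cxcr4 at 407, 334, 389 and 357 CPM and NK cell-like cells at 237, 283, 274 and 311 CPM. Macrophage- or monocyte-like cells had 162, 207, 200 and 177 CPM. The neutrophil level was thus above the macrophage level in every library. It was lower in ADU-S100 (324 to 344) than in untreated (367 to 450), and at equal depth the shares were 26%, 24.4%, 26.6% and 25.4%. Neutrophil-like cells made up 6.69%, 40%, 7.41% and 8.95% of leukocytes, so in the ADU-S100 library they held 27.2% of the Cxcr4 UMIs against 5.85% to 7.72% in the others.

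In T cell-like cells Cxcr4 was 126 (117 to 136), 304 (283 to 327), 225 (214 to 237) and 160 (147 to 175) CPM. The 4 intervals did not meet, and ADU-S100 was the highest with a log2 ratio of 1.27. It was 0.83 in the anti-LTβR and 0.34 in the combination library, so the library of highest Ccr7 in T cell-like cells had the treated level of Cxcr4 closest to untreated. Shares at equal depth followed the levels, at 12.2%, 23.8%, 17.8% and 14.1%. CD8 T cell-like cells had 51.4, 153, 126 and 110 CPM and CD4 T cell-like cells 192, 352, 251 and 199 CPM. Both coreceptor classes had their highest Cxcr4 level in the ADU-S100 library. Cycling T cell-like cells had 25.8, 111, 161 and 228 CPM, while type 17 or gamma-delta T cell-like cells were high in every library, at 418, 479, 401 and 453 CPM. Of the 2 receptors that passed the 200 UMI minimum in T cell-like cells, 1 reached a 2-fold difference for ADU-S100 (Cxcr4), 0 for anti-LTβR and 1 for the combination (Ccr7), against 1.51%, 1.51% and 1.54% of all genes.

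In 3 of 4 DC classes Cxcr4 stood highest in the ADU-S100 library. Mature DC-like cells had 94.5, 158, 110 and 113 CPM, cDC2-like cells 109, 200, 88.4 and 73.9 CPM, and cDC1-like cells 13.4, 47.4, 21.1 and 31.2 CPM. In the fourth class, pDC-like cells, the combination was highest, at 81.8, 105, 136 and 177 CPM from 27, 36, 31 and 15 UMIs. Plasma cell-like cells, which use CXCR4 for retention in the bone marrow, had 93.4, 112, 91.6 and 84.8 CPM and thus a level below that of neutrophil-like cells. Plasma cell-like cells numbered 104, 64, 396 and 822.

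To separate levels within classes from the makeup of the libraries, the log2 ratios over all leukocytes were recomputed with class shares held at untreated and, in turn, with class levels held at untreated. For Cxcr5 the levels alone gave 0.91, 0.85 and 1.17 and the shares alone 0.26, 0.32 and 0.21. The Cxcr5 split leans on the untreated B cell level, which rests on 4 UMIs. For Ccr7 the levels alone gave 0.43, 0.15 and 0.15 and the shares alone −0.84, −0.39 and −0.71. On this scale the lower Ccr7 of the treated libraries thus went with lower shares of its carriers. Mature DC-like cells were 157 to 182 per library, among 7372 leukocytes in the untreated and 13023 to 14417 in the treated libraries. For Cxcr4 the levels alone gave 0.49, 0.31 and 0.12 and the shares alone 0.39, 0.03 and 0.00. How many cells of a class each tumour held cannot be read from these sorted and pooled libraries.

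**Figure D4:**
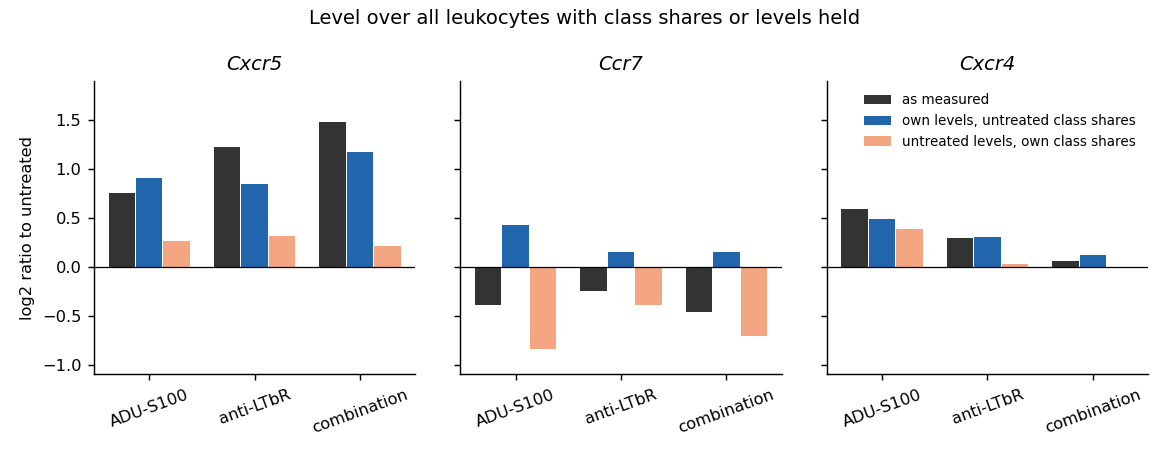
Log2 ratio to the untreated library over all leukocytes for Cxcr5, Ccr7 and Cxcr4, as observed, with class levels alone and with class shares alone. For Ccr7 the shares alone were below 0 and the levels alone above 0 in all 3 treated libraries.

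Cells with 2 receptors were counted after thinning and set beside the product of the single shares. Of 4908 T cell-like cells, 16 had both Cxcr5 and Ccr7, where the product gave 5.58. Of 322 B cell-like cells 15 had both, where it gave 10.6. For Ccr7 and Cxcr4 the counts were 48 against 52.8 in T cell-like and 58 against 55.2 in mature DC-like cells. These cells share library and depth, and the values are descriptions.

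Of 34 listed genes that act with these receptors (decoy receptors, lymph node entry and egress, G protein regulators and the lymphotoxin axis), 33 were in the files. Over all leukocytes 3 of 26 that passed the minimum were at least 2-fold higher and 3 lower for ADU-S100, 0 of 27 for anti-LTβR either way, and 0 higher and 2 lower of 26 for the combination, beside the 12.9%, 2.47% and 3.5% of all genes. Their median log2 ratios of −0.22, −0.01 and −0.17 stand beside −0.38, −0.06 and −0.15 over all genes. The higher ones for ADU-S100 were Ackr3 (1.57), the decoy receptor of CXCL12, Ccrl2 (1.41), which binds chemerin, and Klf2 (1.25). The lower ones were Dpp4 (−1.13), a peptidase that cleaves CXCL12, S1pr4 (−1.37) and Rgs16 (−2.32). The 2 lower for the combination were Ch25h (−1.92), which makes the precursor of the EBI2 ligand, and Rgs16 (−1.12). Ackr3 was thus higher in the library of highest Cxcr4.

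In T cell-like cells genes of recirculation were among those that differed. Klf2 was higher in the ADU-S100 (1.35), anti-LTβR (1.36) and combination (1.42) libraries. S1pr1, needed to leave lymph nodes, was 1.00 for the combination, and Ccrl2 was −1.31 for anti-LTβR. In all, 1 was higher and 0 lower, 2 and 1, and 3 and 0 of 19 genes that passed, not all of them named, beside 1.51%, 1.51% and 1.54% of all genes. The list medians of 0.07, −0.03 and 0.02 lay close to the −0.05, 0.00 and −0.05 of all genes. In mature DC-like cells Rgs2 was higher for ADU-S100 (1.22, 1 of 10) and Ccrl2 for anti-LTβR (1.08, 1 of 9), and 0 of 9 reached 2-fold for the combination, beside 3.17%, 0.609% and 3.47% of all genes. In neutrophil-like cells 1 of 14 was lower for ADU-S100, Ltb at −1.47, which encodes a ligand of the lymphotoxin beta receptor, and 0 of 12 and 0 of 13 differed 2-fold for anti-LTβR and the combination, beside 6.57%, 2.58% and 1.37% of all genes.

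The genes most like each receptor in pattern were found by Pearson's r of log2(CPM + 1) over 41 sums of a cell class in a library, among 13620 genes. Slc4a8 (0.921), Gypc (0.910) and Tmem131l (0.874) were most like Ccr7. Helz2 (0.800), Gm47957 (0.776) and Gucd1 (0.774) were most like Cxcr5, a weaker likeness. Abcg1 (0.852), Sema4d (0.844) and Rac2 (0.840) were most like Cxcr4. For Cxcl13 the leading genes were Ifnb1 (0.926), which encodes interferon beta, Gm56557 (0.889) and Fam13a (0.873), but Cxcl13 was at 0 in most sums, so this rests on few points. The sums share libraries and classes, and r is a description.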

How the data were processed

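Per the file headers, the deposited matrices hold raw UMI counts per gene and barcode that the authors made with Cell Ranger 8.0.1, while the submitters' notes name version 7.1.0 and mm10. The labels and the methods also name different 5′ kits, and the cause was not tested. Each library pooled 10 tumours of 1 group. Here, cells with 300 to 5000 detected genes and at most 6% mitochondrial UMIs were kept. The highest Scrublet scores were removed at 0.4% per 1000 cells (305, 949, 857 and 1066 cells), since the automatic threshold marked 0, 0, 1 and 0. Cells were clustered without the members and pathway genes (Leiden, resolution 1, 34 clusters) and named from markers. Counts were summed per class. Ratios needed more than 3 UMIs in each library and 20 in sum for a member, and 200 in sum for counts of genes past 2-fold. The self-test on simulated counts was passed. Named were the 6 members, the listed pathway genes past 2-fold (with 1 exception not reported here) and the 3 genes most like each of 4 members in pattern, since Ccl19 and Cxcl12 had too few UMIs. Ccl19-ps2 and the genes read in single ligand-rich cells were added after their values were seen. Members and lists were chosen with earlier results of these data known. Alternatives covered normalization by size factors, depth thinning, doublets, clustering, cell filters and count minimum. With 1 library per group, leaving out a replicate was not possible.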

Additional observations from a re-analysis of the deposited data

Results flagged for a closer look

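For the combination against untreated, Cxcr4 differed in direction between cell classes: its log2 ratio was 1.21 in cDC1-like and 1.13 in pDC-like cells but −1.29 in mast cell- or basophil-like cells, where it stood at 522 and 200 CPM in 30 and 23 cells. The difference was not tested. Ccl19-ps2, a transcribed pseudogene outside the 6 members, stood above untreated in the combination by 1.9 (0.82 to 3.29) on the log2 scale and is a signal outside the main measurement.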

How the results depend on the processing

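No paired analysis was possible because each group was 1 library and the labels give no replicate numbers. Log2 ratios are given in the order ADU-S100, anti-LTβR, combination where 3 stand together. Without the cell of most UMIs in each library, Cxcl13 was −2.90 for ADU-S100 and −2.16 for the combination over leukocytes and −2.87 and −1.99 in macrophage- or monocyte-like cells, and over all deposited cells it was −0.77 and −1.73. With size factors over leukocytes, Cxcr5 was 1.14 for ADU-S100, Ccr7 −0.013, −0.18 and −0.30, and Cxcr4 0.97, 0.38 and 0.22, and Cxcr4 in macrophage- or monocyte-like cells was 0.58, 0.36 and 0.22. Thinning gave Ccr7 −0.77, −0.36 and −0.38 over leukocytes and 0.078 and 0.18 (single agents) in mature DC-like cells, and Cxcr4 0.004 for the combination. With all deposited cells Ccr7 was −0.32, −0.031 and −0.23 and Cxcr4 0.68, 0.42 and 0.20. Without doublet removal Ccr7 was −0.47 for ADU-S100, and Cxcr4 in macrophage- or monocyte-like cells was 0.059 for the combination, and these cells held 57.8% of its UMIs. With cells named one by one without clusters, Ccr7 in mature DC-like cells was 0.082 for ADU-S100 and −0.023 for the combination, Cxcr4 in macrophage- or monocyte-like cells 0.028 for the combination, and the leading classes held 97.9% of Cxcl13, 51.6% of Ccr7, 15.1% of Cxcl12 and 61.8% of Cxcr4 UMIs. At resolution 2 they held 97.2% of Cxcl13 and 50% of Cxcr4. Thinned shares with a UMI were 0%, 25.6% and 26.4% for Cxcr5 in B cell-like cells (untreated, anti-LTβR, combination), 81.8%, 75.4%, 81.8% and 71.0% for Ccr7 in mature DC-like cells, and 14.4%, 17.8%, 17.1% and 15.3% for Cxcr4 in macrophage- or monocyte-like cells. At a minimum of 50 UMIs, 2356, 615 and 786 genes passed 2-fold in place of 1520, 295 and 407. The setting chosen after seeing the data, without cells bearing 3 or more mature DC markers, turned Ccr7 in cDC1-like cells to −1.08 for anti-LTβR, gave 0.98 and −1.52 for ADU-S100 and the combination, and gave 0.87 for ADU-S100 in macrophage- or monocyte-like cells. Leaving out cells with 3 or more B cell markers changed none of 15 Cxcr5 values by more than its interval. Few cells were left out, among T cell-like cells only 1 of 1981 in the anti-LTβR library, so little could change. The causes of these shifts were not tested. With 1 pooled library per group, treatment cannot be told apart from library, and Ccl19, Cxcl12 and untreated B cell-like values are limited by few UMIs.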
